A study of Mus musculus with 20 samples.

Results

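The genes described here carry the integrated stress response, the unfolded protein response and the serine and one-carbon pathway that both responses feed. They were taken from a list of 47 names, of which 46 matched a gene symbol among the 49997 genes of the count tables. The list was chosen with earlier results of these data known. Counts of members set beside shares of all genes are therefore descriptions, not independent evidence. The remaining entry, Vldlr-none, names no gene. By role, the 46 members are 7 regulators and 3 effectors of the integrated stress response, 4 sensors and transcription factors of the unfolded protein response, and 7 genes of protein folding and degradation at the endoplasmic reticulum (ER). The others are 5 genes of serine and asparagine synthesis and the linked mitochondrial enzyme Pck2, 2 of transsulfuration, 5 of the folate one-carbon cycle, 8 amino acid transporters and 5 aminoacyl-tRNA synthetases.

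Polyadenylated RNA was measured by RNA sequencing in 2 populations sorted from cultured mouse bone marrow cells. The first, called HSC, is labelled lineage-negative, Sca1- and cKit-positive and positive for CD201 and CD150, surface proteins used to enrich blood stem cells. The second, called HPC, has the same lineage, Sca1 and cKit phenotype but lacks CD201 and CD150, and holds progenitor cells. Cells of each population carried either no knockout of Runx2 (wild type, WT), 1 knocked-out copy (heterozygous, het) or no intact copy (homozygous, hom), with 3 libraries in each of the 6 groups. The product of Runx2 is a RUNX transcription factor. The series speaks of floxed mice or of CRISPR knockout. Neither the route by which a given library was made is labelled, nor what drove the deletion, the age of the mice or whether replicates came from separate animals or cultures. All p-values below rest on the spread between these libraries, which may be technical.

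The integrated stress response starts when a kinase phosphorylates the translation factor eIF2. General translation then slows, while the mRNA of the transcription factor ATF4 is translated more. ATF4 switches on amino acid transporters, the enzymes that make serine, glycine and asparagine, the tRNA synthetases, and regulators such as CHOP (the product of Ddit3) and TRIB3. The unfolded protein response reads misfolded protein in the ER through 3 sensors: PERK (Eif2ak3), which feeds into ATF4, IRE1 (Ern1), which splices the mRNA of Xbp1, and ATF6. XBP1 and ATF6 raise chaperones such as BiP (Hspa5). Blood stem cells are known for low rates of protein synthesis and for their sensitivity to protein misfolding.

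The 2 arms of this network are read through different promoter elements, and their sequences are shown because members of the 2 arms are described separately below. Promoters were taken from RefSeq (build GRCm38.p6) as 250 bases before to 50 bases after a listed start, and 38 of the 46 members had an entry. The C/EBP-ATF response element, the site of ATF4 dimers, was searched as TGATGNAA on both strands. It was found in 11 of the 38 members (28.9%) and in 4.51% of all 27025 symbols with a promoter. These members were Aars, Asns, Atf3, Chac1, Gars, Herpud1, Nupr1, Pck2, Slc1a4, Slc7a11 and Trib3. Sequences run 5′ to 3′ on the strand of the gene, with the matching letters in capitals, and a match is a description of letters, not of binding.

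Asns (chr6:7693210-7693257, minus strand): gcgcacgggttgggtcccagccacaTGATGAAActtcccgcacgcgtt
Chac1 (chr2:119351024-119351081, plus strand): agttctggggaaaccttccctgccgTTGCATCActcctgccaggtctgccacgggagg
Nupr1 (chr7:126625548-126625605, minus strand): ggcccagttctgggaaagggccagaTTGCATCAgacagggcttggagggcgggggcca
Pck2 (chr14:55540138-55540195, plus strand): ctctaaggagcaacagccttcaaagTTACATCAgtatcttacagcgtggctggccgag
Aars (chr8:111033705-111033762, plus strand): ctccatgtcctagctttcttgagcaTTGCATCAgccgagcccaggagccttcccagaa
Gars (chr6:55037946-55038000, plus strand): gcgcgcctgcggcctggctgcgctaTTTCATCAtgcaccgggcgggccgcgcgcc
Herpud1 (chr8:94386292-94386349, plus strand): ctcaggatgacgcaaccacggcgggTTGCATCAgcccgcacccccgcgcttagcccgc
Slc7a11 (chr3:50443647-50443704, minus strand): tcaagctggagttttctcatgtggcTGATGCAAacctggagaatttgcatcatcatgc

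The Slc7a11 window holds a second match in the other orientation, left here in lower case. The ER stress response element, read by ATF6 and XBP1 together with the factor NF-Y, was searched on both strands as CCAAT and CCACG with 9 bases of any kind between them. It was found in 3 members (7.89% of 38), against 0.137% of all symbols, and all 3 encode ER chaperones or their partners: Hspa5 (BiP), Hsp90b1 (GRP94) and Dnajc3 (the co-chaperone p58IPK). Hsp90b1 holds it at 2 places, of which the sense one is shown.

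Hspa5 (chr2:34772000-34772068, plus strand): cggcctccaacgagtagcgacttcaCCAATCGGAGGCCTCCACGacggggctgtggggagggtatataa
Hsp90b1 (chr10:86705613-86705681, minus strand): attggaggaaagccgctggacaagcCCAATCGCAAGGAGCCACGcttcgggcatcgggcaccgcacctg
Dnajc3 (chr14:118937802-118937870, plus strand): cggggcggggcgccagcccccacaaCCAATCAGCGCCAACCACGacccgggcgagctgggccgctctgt

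The letters that RUNX proteins recognise were searched in the same promoters. TGTGGT was in 3 of the 38 members (7.89%, against 18.9% of all symbols), namely Shmt2, Slc3a2 and Slc6a9. TGCGGT was in 5 (13.2%, against 7.34%), namely Gars, Herpud1, Hsp90b1, Ppp1r15a and Sesn2. Some promoters hold several kinds of these letters.

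The libraries held 16663497 to 27061457 counts, and levels are given as CPM, counts scaled to a common library size with TMM factors. A level of 3 counts, taken as the floor of detection, corresponded to 0.111 to 0.18 CPM and covers counting error only. Runx2 itself checks the labels (in this check CPM are scaled to the raw library total, without TMM factors). It stood at 125, 133 and 130.1 CPM in the WT HSC libraries, 90.3, 96.4 and 86.5 in het and 27.3, 30.6 and 27.1 in hom. In HPC it stood at 111, 120.3 and 123 in WT, 98.8, 99.5 and 91.6 in het and 21.6, 20.7 and 23.2 in hom. Both populations thus followed the order WT, het, hom without overlap. The 9 HSC libraries held 121 to 167 CPM of the Y-linked Ddx3y and up to 1.26 of Xist, whereas the 9 HPC libraries held 0 of Ddx3y and 2539 to 4475 of Xist. Population and sex of the cells therefore cannot be told apart. Of the 4 sort markers, Ly6a (Sca1) was listed at 0 counts in all 18 libraries.

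Atf4 was listed at 0 counts in all 18 libraries, and so were Mief1 and Rps19bp1, its neighbours on chromosome 15, which many cell types use. Tab1, close by, had 306 to 628 counts. Nothing can be said about Atf4 mRNA from these tables, and the cause of the zeros was not tested. Of the other 45 members, 45 passed the filter on low counts in HPC and 44 in HSC, where Cth did not (0.0687 to 0.428 CPM, around the floor). A gene was called when its adjusted p (edgeR quasi-likelihood test, Benjamini-Hochberg over all genes tested) was under 0.05. The verbs rose and fell are used for called genes only.

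**Figure D1:**
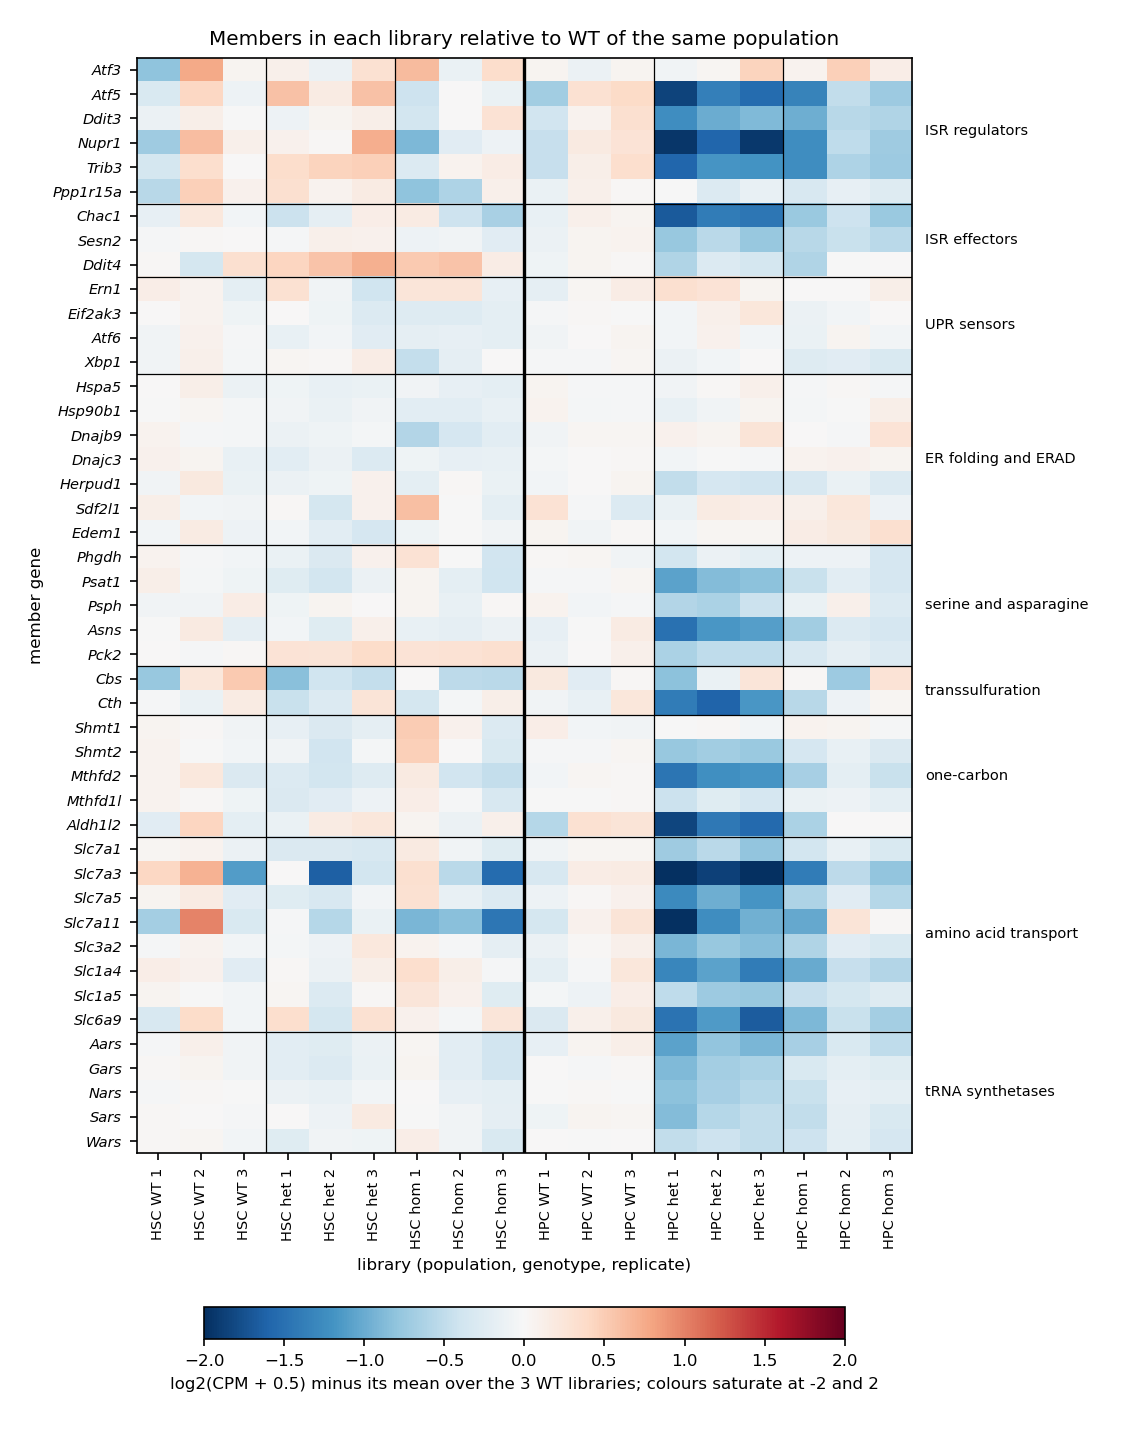
Heat map of the 45 measured members (rows, by role) in the 18 libraries (columns). Colour is log2(CPM + 0.5) minus its mean over the 3 WT libraries of the same population. The 3 HPC het libraries are the lowest for most stress response, transporter and synthetase genes, with median log2 differences over all measured members of -0.76, -0.57 and -0.57. Among the ER folding rows, Herpud1 is lower in these libraries too, and the median row of the 7 differs from WT by 0.01 in the het fit.

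In HPC, most genes of amino acid transport, synthesis and charging fell in het cells, and of the 7 ER folding and degradation genes Herpud1 fell. Whether these groups differ from each other was not tested. Of 45 members tested, 28 fell and none rose in het against WT (edgeR, adjusted p under 0.05), where 16.1% of all 13855 genes tested were called, 6.99% lower and 9.15% higher. The fallen members were 7 of 8 transporters, 5 of 5 tRNA synthetases, 4 of 5 genes of serine and asparagine synthesis, 4 of 5 one-carbon genes, 4 of 6 measured regulators and 2 of 3 effectors. They also included Cth of transsulfuration and Herpud1, and none of the 4 sensors. The median log2 difference over the 45 members was -0.67, against 0.00 over all genes tested. In 31 members every het library lay below every WT library, against 16.2% of all genes, and in 1 (Dnajb9) every het library lay above, against 17.4%.

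In hom HPC most members had a mean between those of het and WT. Against WT, 22 members fell and 1 rose, where 9.21% of genes tested were called, 4.29% lower and 4.92% higher, and the median log2 difference was -0.25. Hom was above het for 23 members and below it for 1 (Xbp1), where 9.4% of genes were called, 3.63% higher and 5.77% lower, with a median of 0.32. Every hom library lay below every WT library in 27 members (13.8% of all genes) and above in 3 (13% of all genes), namely Atf3, Dnajc3 and Edem1. Every hom library lay above every het library in 25 members (12.4% of all genes) and below in 1, Xbp1 (14.8% of all genes). Both comparisons with WT use the same 3 WT libraries. The order of most members by mean was thus WT, hom, het, unlike that of Runx2 itself. In 19 of 45 members every WT library lay above every hom library and every hom library above every het library, a pattern held by 0.989% of all genes tested. The means alone followed that order in 32 of 45 members, against 19.9% of all genes.

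**Figure D2:**
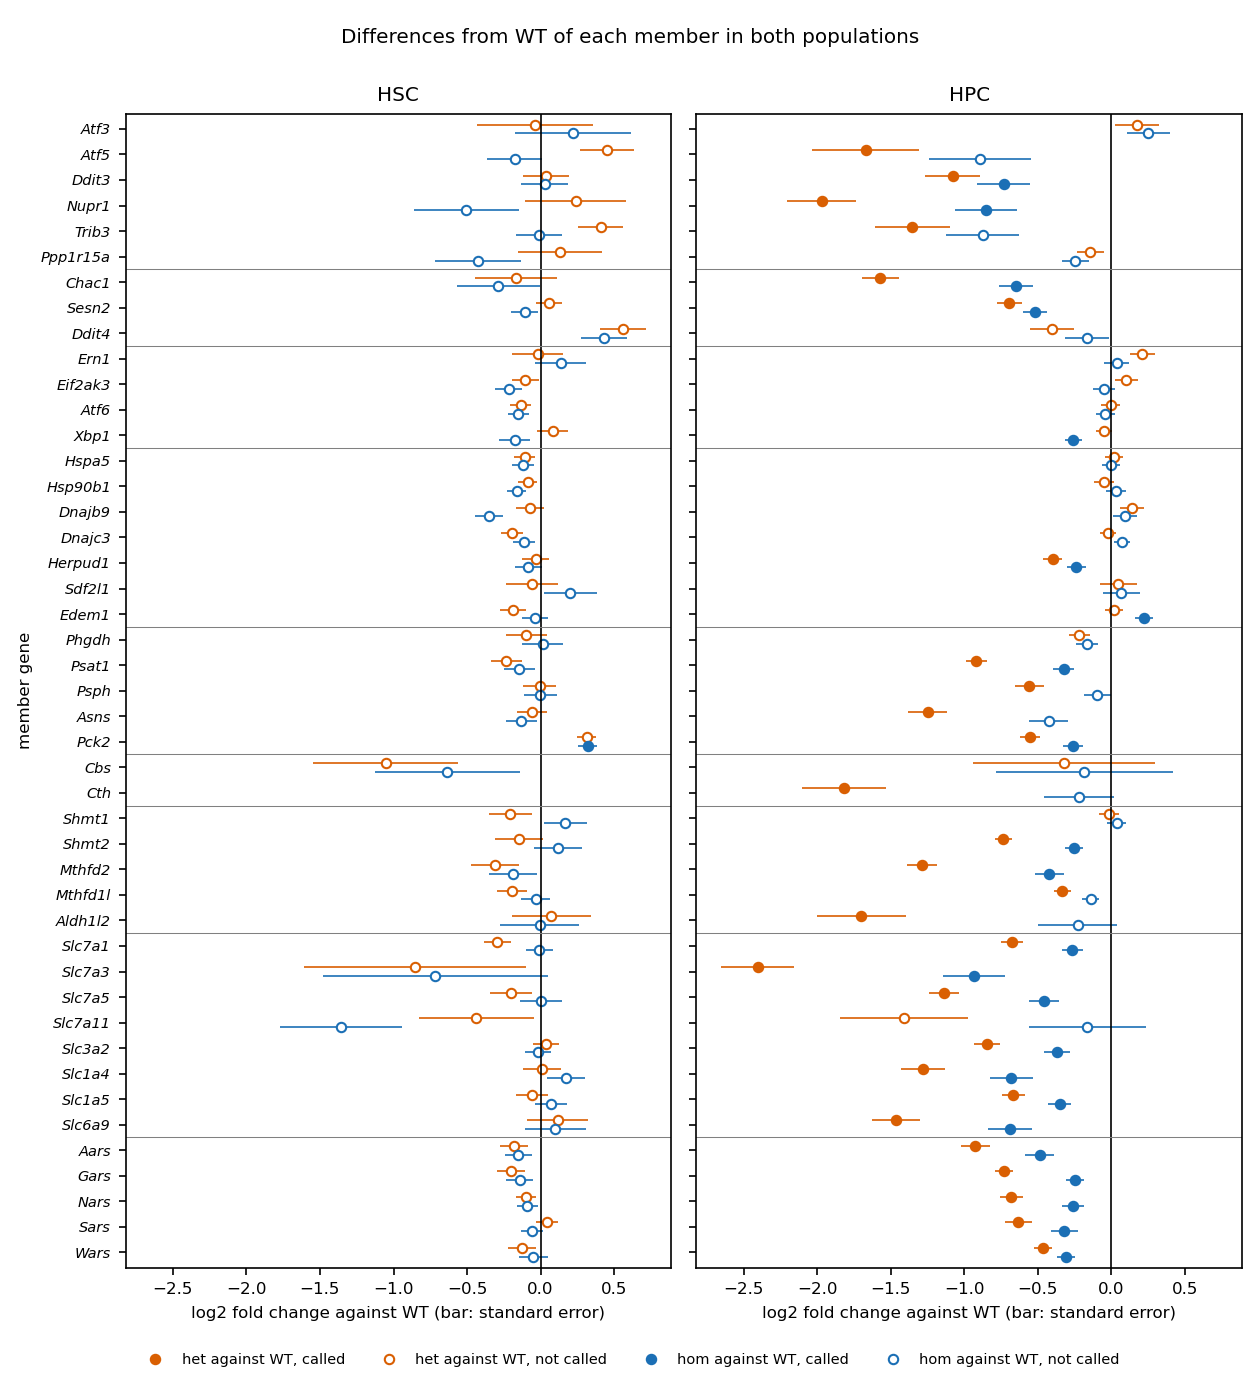
Log2 fold change against WT with its standard error for each member, in HSC (left) and HPC (right); filled points were called and open points were not. In HPC 28 het points and 23 hom points are filled, in HSC 1 (hom Pck2), and of the 7 ER folding genes only Herpud1 (het and hom) and Edem1 (hom) are filled, both in HPC.

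Among the regulators, Ddit3, which encodes the pro-apoptotic factor CHOP, stood at 31.3, 43.1 and 51.6 CPM in the WT HPC libraries, 17.1, 20.4 and 21.97 in het and 20.7, 27.9 and 26.97 in hom. All WT libraries lay above all others, and het and hom overlapped. The log2 difference was -1.08 ± 0.19 (SE) for het (edgeR adjusted p = 0.00318) and -0.73 ± 0.18 for hom (adjusted p = 0.0304). Exons of Ddit3 share 5.82% of their bases with Mars1 and Mbd6, so its level is uncertain to that extent.

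Trib3, a pseudokinase that dampens ATF4 and CHOP, was at 53.9, 80.3 and 93.7 CPM in WT HPC, 24.3, 32.5 and 32.2 in het and 31.1, 48.2 and 44.5 in hom. WT was apart from both knockouts, and the first WT and the first hom library were the lowest of their groups. It fell in het (-1.35 ± 0.26, edgeR adjusted p = 0.0125) and was not called in hom (-0.88 ± 0.25, adjusted p = 0.0834; DESeq2 called it). Nupr1, a small stress-induced chromatin protein, fell in het from 15.4 ± 4.01 to 3.92 ± 0.646 CPM (SD, n = 3) and stood at 8.48 ± 2.23 in hom, which was above het and below WT by the same test. Atf5, a transcription factor translated like ATF4, fell in het from 62.6 ± 22.6 to 19.6 ± 3.29 CPM, but when single libraries were left out it was called in 1 of 6 fits.

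The remaining measured regulators were not called in het or hom. Atf3, a repressor induced by stress, stood at 7.82 to 8.9 CPM in WT HPC, 8.05 to 11.8 in het and 8.96 to 12.04 in hom, with log2 differences of 0.17 ± 0.15 and 0.25 ± 0.15 that were not called. Ppp1r15a, which encodes the eIF2 phosphatase subunit GADD34 that ends the response, stood at 25.6 to 30.2, 23.2 to 27.9 and 22.4 to 25.1 CPM. Its het libraries overlapped WT (-0.14 ± 0.09). Every hom library lay below every WT library (-0.25 ± 0.09, edgeR adjusted p = 0.111), the same direction as most members.

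Of the effectors, 2 fell in both knockouts. Chac1, which degrades glutathione, stood at 17.3, 20.8 and 19.9 CPM in WT HPC, 5.68, 7.02 and 6.73 in het and 11.3, 14.3 and 11.4 in hom. The 3 groups did not overlap. Its log2 difference from WT was -1.57 ± 0.13 in het (edgeR adjusted p = 1.61e-07) and -0.65 ± 0.12 in hom (adjusted p = 0.00117), and hom was above het by 0.92 ± 0.13 (adjusted p = 0.000225). Sesn2, a leucine sensor that restrains mTORC1, stood at 44.3, 49.8 and 50.8 CPM in WT, 28.2, 33.2 and 28.2 in het and 32.7, 35.2 and 32.96 in hom. Het and hom overlapped and both lay below WT, by -0.69 ± 0.08 and -0.52 ± 0.08. Ddit4, which also restrains mTORC1, was not called in either (-0.40 ± 0.15 and -0.17 ± 0.15).

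**Figure D3:**
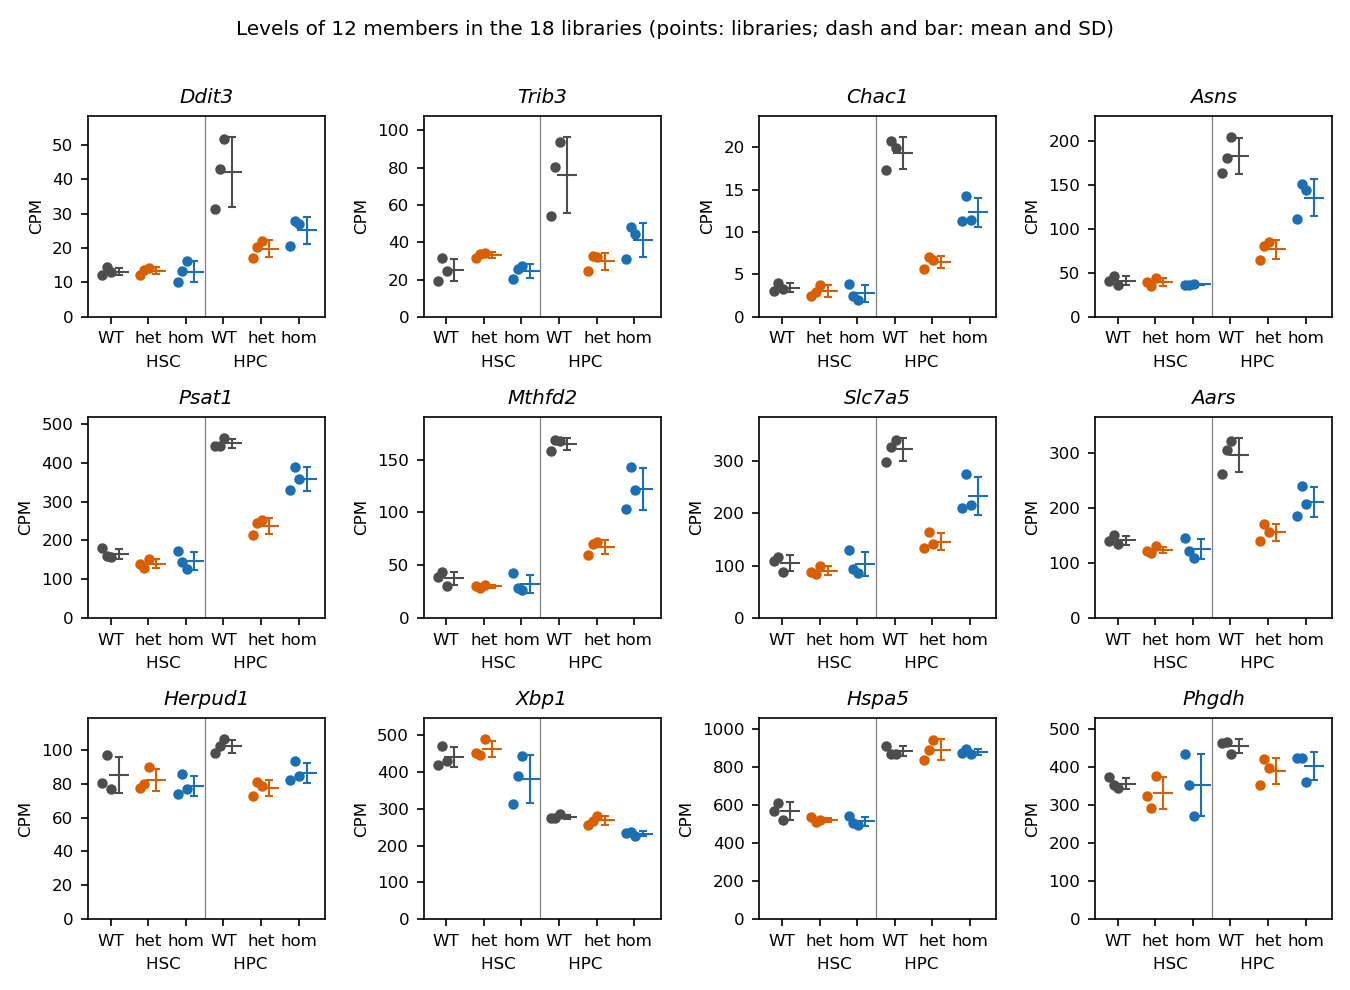
CPM of 12 members in each of the 18 libraries (points), with mean and SD beside them, from 0 on each axis. Ddit3 to Herpud1 are highest in the 3 WT HPC libraries. Within HPC, the genotypes overlap for Hspa5. Xbp1 is lowest in the 3 hom libraries (log2 difference from WT -0.26, called). Phgdh is highest in the 3 WT libraries (-0.22 in het and -0.17 in hom, not called).

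The sensors of the unfolded protein response differed little. Ern1, Eif2ak3 and Atf6 had log2 differences from WT between -0.05 and 0.21 in het and hom HPC, and none was called. Xbp1, the splicing target of IRE1, stood at 274.7, 275 and 285 CPM in WT, 256, 268 and 281 in het and 234, 237 and 225 in hom. The hom libraries lay below all others. Xbp1 fell in hom against WT (-0.26 ± 0.06, edgeR adjusted p = 0.00521) and was lower in hom than in het (-0.21 ± 0.06, adjusted p = 0.0257), the opposite order of het and hom to the amino acid genes. Counts per gene do not separate spliced from unspliced Xbp1.

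Of the 7 ER folding and degradation genes, Hspa5 stood at 913, 867 and 872 CPM in WT HPC, 837.5, 893 and 946 in het and 873, 896 and 871 in hom. The 3 groups overlapped and the log2 differences were 0.01 ± 0.06 and -0.00 ± 0.06 (6.27% of its exon bases are shared with Rabepk). Hsp90b1 stood at 1423, 1318 and 1328 CPM in WT, 1226, 1292 and 1414 in het and 1322, 1351 and 1471 in hom, again with overlap. Dnajb9, Dnajc3 and Sdf2l1, co-chaperones of BiP or their partners, were not called, with differences between -0.02 and 0.14.

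Herpud1 and Edem1, which both serve the degradation of misfolded ER proteins, were the exceptions. Herpud1 fell from 98.4, 102 and 106 CPM in WT to 72.5, 81.2 and 78.6 in het (-0.40 ± 0.07, edgeR adjusted p = 0.000324) and 81.9, 93.1 and 84.5 in hom (-0.24 ± 0.07, adjusted p = 0.0245). It also holds the C/EBP-ATF letters shown above. Edem1 rose in hom, from 175, 160.4 and 172 to 187, 193 and 210.2 CPM (0.22 ± 0.06, adjusted p = 0.0233), and stood at 164, 174.6 and 174.5 in het.

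In the serine pathway, Psat1 fell in both knockouts, Psph fell in het, and Phgdh was not called. Phgdh, which opens the pathway from 3-phosphoglycerate, stood at 464, 467 and 434 CPM in WT HPC, 353, 421 and 399 in het and 425, 426 and 360.5 in hom. WT lay above both, but neither difference was called (-0.22 ± 0.07, adjusted p = 0.0541, and -0.17 ± 0.07, adjusted p = 0.19, by edgeR; DESeq2 called the first). Psat1, the transaminase that follows, stood at 443.2, 443.2 and 463 in WT, 214, 245 and 254 in het and 329, 389 and 358 in hom. The groups were apart, at -0.92 ± 0.07 for het (adjusted p = 1.06e-07) and -0.32 ± 0.07 for hom (adjusted p = 0.00539). Psph, the phosphatase that releases serine, fell in het (-0.56 ± 0.10) and was not called in hom (-0.10 ± 0.09). That the steps differ from one another was not tested.

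Asns, which makes asparagine from aspartate, had one of the larger differences of the group. It stood at 164, 181 and 205 CPM in WT HPC, 64.7, 81.1 and 84.8 in het and 112, 151.5 and 144 in hom, with no overlap between groups. It fell in het by -1.25 ± 0.14 (edgeR adjusted p = 0.000145). In hom it missed the threshold (-0.43 ± 0.13, adjusted p = 0.076; DESeq2 called it), and it was higher in hom than in het (0.82 ± 0.14, adjusted p = 0.0044). Pck2, the mitochondrial enzyme that turns oxaloacetate into phosphoenolpyruvate, stood at 206, 224.5 and 239 CPM in WT, 143, 156 and 156 in het and 177, 196 and 184 in hom. It fell in both, by -0.55 ± 0.07 and -0.26 ± 0.07.

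In het HPC the 4 one-carbon genes that act in mitochondria fell and the cytosolic Shmt1 was not called. Shmt2, which takes the one-carbon unit from serine in mitochondria, stood at 283, 284 and 294 CPM in WT HPC, 169, 177 and 171 in het and 227, 259 and 235 in hom. Mthfd2, the next mitochondrial enzyme, stood at 158, 168 and 167.5 in WT, 59.5, 70.3 and 72.3 in het and 103.5, 143 and 121 in hom. Both genes kept the 3 groups apart. Shmt2 fell by -0.73 ± 0.06 in het (edgeR adjusted p = 1.64e-07) and -0.25 ± 0.06 in hom (adjusted p = 0.00921), and Mthfd2 by -1.29 ± 0.10 (adjusted p = 9.49e-07) and -0.42 ± 0.10 (adjusted p = 0.0121).

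Mthfd1l, which makes formate in mitochondria, fell in het (-0.34 ± 0.06) and was not called in hom (-0.14 ± 0.06). Aldh1l2, which oxidises the formyl unit there, fell in het from 29.1 ± 8.99 to 8.92 ± 1.33 CPM (SD, n = 3) and stood at 24.7 ± 5.87 in hom, above het (1.47 ± 0.30, edgeR adjusted p = 0.0237). Shmt1 stood at 64.1 to 73.9 CPM in WT, 64.9 to 68.1 in het and 66.4 to 70.5 in hom, and was not called. Of the transsulfuration genes, Cth, which yields cysteine from cystathionine, fell in het from 3.01 ± 0.487 to 0.843 ± 0.201 CPM and stood at 2.57 ± 0.615 in hom. Cbs, the step before it, lay at 0.0639 to 0.704 CPM in the 9 HPC libraries, too near the floor for a statement.

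Of the 8 transporters, the same 7 fell in het and in hom. Slc7a5 and Slc3a2 encode the light and heavy chain of the exchanger LAT1 that imports large neutral amino acids such as leucine. Slc7a5 stood at 298, 327 and 339.7 CPM in WT HPC, 133, 163 and 141 in het and 209.8, 275 and 215 in hom. Slc3a2 stood at 214.5, 238 and 251 in WT, 123, 139 and 129 in het and 153, 199.5 and 189.6 in hom. The 2 chains kept the same order of groups, without overlap. Slc7a5 fell by -1.14 ± 0.10 in het (edgeR adjusted p = 4.34e-06) and -0.46 ± 0.10 in hom (adjusted p = 0.00921), and Slc3a2 by -0.85 ± 0.09 and -0.37 ± 0.09.

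Slc7a3 and Slc7a1 both import cationic amino acids such as arginine. Slc7a3 was low and changed most in size: 7.06, 9.92 and 10.1 CPM in WT, 1.21, 2.07 and 1.79 in het and 3.08, 6.05 and 4.93 in hom (-2.40 ± 0.25, edgeR adjusted p = 3.39e-06, and -0.93 ± 0.21, adjusted p = 0.00839). Slc7a1 was far more abundant, at 289.7, 311 and 312 CPM in WT, 186, 209.5 and 175.5 in het and 236, 275 and 246 in hom. Its differences were -0.68 ± 0.07 and -0.27 ± 0.07, both called.

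Slc1a4 and Slc1a5 exchange neutral amino acids, among them serine and glutamine. Slc1a4 stood at 55.4, 62.4 and 74.6 CPM in WT, 25.4, 30.03 and 23.7 in het and 31.4, 45.9 and 42.2 in hom, and fell by -1.28 ± 0.15 and -0.68 ± 0.15. Slc1a5 stood at 221, 212 and 248 in WT, 158, 137 and 133 in het and 164.5, 177 and 189.9 in hom, and fell by -0.67 ± 0.08 and -0.35 ± 0.08. In both genes the 3 groups were apart. The glycine transporter Slc6a9 stood at 27.9, 36.6 and 39.1 CPM in WT, 11.9, 15.3 and 10.5 in het and 18.1, 24.9 and 21.1 in hom, and fell by -1.46 ± 0.16 and -0.69 ± 0.15.

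Slc7a11, the cystine importer, was the transporter that was not called. It stood at 22.7, 30.9 and 34.7 CPM in WT HPC, 6.13, 12.03 and 14.7 in het and 14.04, 34.9 and 29.6 in hom. All het libraries lay below all WT libraries, and hom spread over both. The log2 difference of het from WT was -1.41 ± 0.43 (edgeR adjusted p = 0.0799; DESeq2 called it) and that of hom -0.16 ± 0.40.

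The 5 tRNA synthetases, which charge tRNAs with alanine, glycine, asparagine, serine and tryptophan, fell in both knockouts. Aars stood at 263, 305.5 and 322 CPM in WT HPC, 140.4, 171 and 157 in het and 186, 240.2 and 207 in hom, with differences of -0.93 ± 0.10 and -0.49 ± 0.10. Gars stood at 318, 313 and 323 in WT, 172, 197.5 and 205 in het and 256, 277 and 268 in hom (-0.73 ± 0.06 and -0.25 ± 0.06). Nars stood at 620.4, 635.5 and 625 in WT, 354.5, 397 and 421.5 in het and 462, 558.5 and 548 in hom (-0.68 ± 0.08 and -0.26 ± 0.08). These 3 kept WT, hom and het apart.

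Sars and Wars did not keep hom and het apart. Sars stood at 362, 399 and 396 CPM in WT HPC, 211, 259.5 and 275 in het and 273, 338.5 and 312 in hom, and hom was above het (0.31 ± 0.09, edgeR adjusted p = 0.0442). Wars stood at 109.6, 109.2 and 109.5 in WT, 77.5, 82.4 and 77.7 in het and 82.1, 95.5 and 86.1 in hom. It fell by -0.47 ± 0.06 and -0.31 ± 0.06, and the 2 knockouts were not called different.

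Related genes outside the members were read from lists written for this purpose, also with earlier results of these data known. Each count is to be read against the shares of all genes. These were 6.99% that fell and 9.15% that rose in het HPC, and 4.29% that fell and 4.92% that rose in hom. All 7 other synthetases known as ATF4 targets fell in het HPC, and 6 of 7 fell in hom, led by Yars (-0.40 ± 0.07), Mars1 (-0.31 ± 0.06) and Iars (-0.32 ± 0.07). Of the 8 remaining cytosolic synthetases, 2 fell in het and 1 (Vars) fell in hom. Other ATF4 and CHOP targets gave 8 lower and 2 higher of 19 tested in het, and 4 lower and 1 higher in hom, where Gpt2 (-0.66 ± 0.09), Aldh18a1 (-0.43 ± 0.08) and Bbc3 (-0.42 ± 0.11) fell and Bcl2l11 rose. Of 25 other ER folding and degradation genes, 2 fell in het and 1 (Traf2) fell in hom, and of 18 other eIF2 pathway genes 3 fell and 1 rose in het and none was called in hom. Other one-carbon and methionine genes gave 2 lower of 16 in het and none in hom. Heat shock and handling genes gave 1 higher of 11 in het (Jun), mitochondrial stress genes 2 lower of 9 in het and 1 (Lonp1) in hom, and glutathione and NRF2 genes 2 higher of 10 in het and 1 (Gsr) in hom. Median log2 differences in het were -0.71 for the ATF4-linked synthetases, -0.15 for the other synthetases, -0.29 for other ATF4 and CHOP targets and -0.08 for the other ER genes. Pycr1, P4hb and Hyou1 were listed at 0 in every library. In HSC, none of these lists held a called gene in het, and in hom only the ATF4 and CHOP list did, with Stc2, a secreted glycoprotein (0.75 ± 0.15, edgeR adjusted p = 0.0205).

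The promoter letters can be set beside these differences, as a description. Over all genes tested, 6.99% fell in het HPC and 4.29% in hom; the share among all genes with a given set of letters was not computed. Of the 11 members with the C/EBP-ATF letters, 9 fell in het HPC (all but Atf3 and Slc7a11) and 7 in hom, with a median log2 difference of -1.25 in het. Of the 26 tested members whose promoter entry lacks those letters, 12 fell in het, with a median of -0.33. The 28 members that fell in het also include members without a promoter entry, which are in neither count. None of the 3 members with the ER stress element was called in either knockout of HPC. Of the 8 members with either form of the RUNX letters, 6 fell in het and 6 in hom.

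Other measures moved with the genotypes of HPC. Monocyte and macrophage markers rose in both knockouts (8 of 8 in het and 7 of 8 in hom, with Ly6c2, F13a1 and Adgre1 first), and their summed level was 405 to 447 CPM in WT, 763 to 781 in het and 729 to 818 in hom. Neutrophil granule markers rose for 4 of 10 genes in het and 8 of 10 in hom, with sums of 1661 to 1770, 2069 to 2487 and 2720 to 2907 CPM. Megakaryocyte markers fell for 4 of 6 genes in het and 1 of 6 in hom (489 to 554, 244 to 332 and 331 to 508 CPM). The 4 include Gp1bb, whose mean lay below the floor in het (0.0819 ± 0.0711 CPM, against 0.621 ± 0.238 in WT). Gp1bb passed the filter through the other groups, so that it had to be lower in het and is no result here. Erythroid markers gave 2 lower of 6 in het and 1 higher in hom, and mast cell, basophil and eosinophil markers 3 higher and 1 lower of 6 in het and 4 higher and 1 lower in hom. B and plasma cell markers gave 3 higher of 3 tested in het and 1 in hom, T cell markers 2 lower of 4 and 3 lower, and dendritic cell markers 2 higher of 7 in het and 1 higher and 4 lower in hom. Stem cell markers gave 1 higher (Hlf) and 2 lower of 8 in het and 1 higher (Hlf) and 5 lower in hom, with sums of 314 to 341, 361 to 383 and 282 to 297 CPM, against 915 to 1010 in WT HSC. Of the sort markers, Kit rose and Slamf1 (CD150) fell in het, and Slamf1 fell in hom. Summed levels were 135 to 159, 155 to 177 and 218 to 252 CPM for mast cell, basophil and eosinophil markers, 307 to 399.8, 308 to 380 and 354 to 408 for erythroid, 34.9 to 39.9, 76.8 to 90.5 and 41.9 to 52.6 for B and plasma cell, 44.3 to 50.9, 22.5 to 27.4 and 14.4 to 23.1 for T cell and 239 to 282, 433 to 475 and 279 to 342 for dendritic cell markers, each in the order WT, het, hom. Cd3e, which defines T cells, was listed at 0 in all libraries. The HPC libraries held 21386411 to 22284511 counts in WT, 16663497 to 20633138 in het and 19060670 to 21058030 in hom, so that both knockouts lay below WT in depth and overlapped each other. The part of these in the results was not tested. In bulk RNA, fewer cells of a type and less RNA per cell cannot be told apart.

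In HPC hom against WT, the count of called members depended on single libraries: it was 9 without WT replicate 3, 10 without WT replicate 2, 13 without hom replicate 3 and 14 without hom replicate 1. Psat1, Wars, Xbp1, Aars, Slc1a5, Sesn2 and Chac1 were called in every one of the 6 fits that left out a library. In het against WT, 27 of the 28 called members were called in all 6. In hom against het, 13 of the 24 called members were, and the count fell to 16 without het replicate 3 or hom replicate 3. The numbers of all genes called in these fits are not given here. Whether the drops were particular to the members was not tested.

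In HSC the members showed little difference between genotypes. Against WT, 1 of 44 tested members rose and none fell in hom, where 2.01% of all 14959 genes tested were called, 1.2% higher and 0.802% lower. Among the cell type markers in hom HSC, 2 of 4 tested T cell markers fell (Tcf7 and Thy1) and 1 of 7 monocyte and macrophage markers (Ccr2). Of 6 dendritic cell markers 1 fell (H2-Aa) and 1 rose (Flt3), and of 4 B and plasma cell markers 1 rose (Sdc1). The other marker lists held no called gene. These counts are to be read against the same shares of all genes. In het none was called, where 0.0334% of genes were (0.0267% higher and 0.00668% lower). An unadjusted p under 0.05 by edgeR was held by 9 of 44 members, against 2067 of all 14959 genes tested. DESeq2 called 2 members, and its number of all genes called is not given here. Hom against het also gave none, where 0.0134% of genes were called (0.00668% in each direction). There 7 of 44 members had an unadjusted p under 0.05 by edgeR, against 1752 of all 14959 genes tested, and DESeq2 called none. The median log2 differences of the 44 members were -0.07 in hom and -0.08 in het. Libraries of hom and WT did not overlap in 1 member that was higher (10.5% of all genes) and 6 that were lower (14.6%), those of het and WT in 3 higher (10.4%) and 9 lower (12.7%), and those of hom and het in 1 higher (6.34%) and 8 lower (9.82%). Over all genes, the spread between HSC libraries was wider than in HPC (common dispersion 0.0128 against 0.00483). Among the members this varied. The standard error of hom against WT was 0.069 in HSC and 0.075 in HPC for Nars, and 0.165 and 0.059 for Shmt2. Whether a difference of the size called in hom HPC could be detected in HSC was not tested.

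The member that rose was Pck2, at 142, 138.5 and 143 CPM in WT HSC, 171, 169 and 182.9 in het and 170, 172 and 177 in hom. Both knockouts lay above WT and overlapped each other. The difference was 0.32 ± 0.06 in hom (edgeR adjusted p = 0.0205), which was lost when any WT library or hom replicate 2 was left out, and 0.31 ± 0.06 in het (adjusted p = 0.119). This is the opposite direction to HPC, where Pck2 fell in both.

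Of the other members followed in every library, Ddit3 stood at 12.1, 14.4 and 13.1 CPM in WT HSC, 12.2, 13.7 and 14.3 in het and 10.1, 13.2 and 16.2 in hom. Trib3 stood at 19.2, 31.4 and 24.7 in WT, 31.6, 33.6 and 34.4 in het and 20.3, 25.9 and 27.3 in hom, so that het lay above both other groups without a call (0.41 ± 0.15 against WT, edgeR adjusted p = 0.276). Ddit4, the mTORC1 restrainer, had the highest log2 difference of the members in het (0.56 ± 0.16, adjusted p = 0.2), not called by edgeR but called by DESeq2.

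Asns stood at 40.9, 46.6 and 36.2 CPM in WT HSC, 39.4, 34.7 and 43.8 in het and 36.8, 36.2 and 37.9 in hom. Mthfd2 stood at 38.9, 43.2 and 30.4 in WT, 30.6, 28.7 and 31.01 in het and 42.3, 28.4 and 26.5 in hom. Aars stood at 139.5, 150.9 and 134 in WT, 123, 119 and 130.4 in het and 145, 122 and 109 in hom. In all 3 genes hom overlapped WT, and in Aars the het libraries lay below WT. Hom replicate 1 was the highest of its group for Mthfd2, Aars and Phgdh, which stood at 374, 352 and 345 in WT, 325.5, 292.5 and 377 in het and 435, 354 and 272.5 in hom.

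On the side of the unfolded protein response, Xbp1 stood at 419, 471 and 429 CPM in WT HSC, 453, 446 and 488 in het and 314, 388 and 444 in hom. Hspa5 stood at 571, 613 and 520.5 in WT, 536.5, 513.5 and 519.7 in het and 541, 508 and 495 in hom. The groups overlapped in both genes for hom against WT. Every hom library lay below every WT library in 2 of 4 sensors, Eif2ak3 (-0.22 ± 0.09) and Atf6 (-0.15 ± 0.07). The same held for 2 of 7 ER folding genes, Dnajb9 (-0.35 ± 0.10, edgeR adjusted p = 0.0765) and Hsp90b1 (-0.16 ± 0.07). None of these was called, none of the sensors or ER folding genes lay apart above WT, and 14.6% of all genes lay apart below. Slc7a11 was low, at 3.33, 11.7 and 4.49 in WT, 5.57, 3.66 and 5.13 in het and 2.79, 2.95 and 1.77 in hom. Its hom libraries lay below WT (-1.36 ± 0.42), but it was not called (edgeR adjusted p = 0.115; DESeq2 called it).

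Whether the effect of a knockout differed between HSC and HPC was tested in a joint fit of all 18 libraries. For hom, 2 of 45 members were called, where 2.79% of 15431 genes tested were (1.06% higher and 1.73% lower): Pck2 (0.56 ± 0.09, edgeR adjusted p = 0.00174) and Slc1a4 (0.83 ± 0.20, adjusted p = 0.0291), both with a higher hom effect in HSC than in HPC. For het, a test added after the values were seen, 20 of 45 were called and all were higher in HSC, where 1.94% of genes were called and 0.804% were higher. They were 5 transporters, 4 regulators, 4 synthetases, 3 genes of serine and asparagine synthesis, 2 effectors and 2 one-carbon genes, and none of the sensors or ER folding genes. Pck2 (0.86 ± 0.09), Slc3a2 (0.88 ± 0.13), Sesn2 (0.74 ± 0.12), Asns (1.19 ± 0.18) and Slc1a4 (1.28 ± 0.20) had the smallest p. The median over all 45 members was 0.58. Leaving out HSC het replicate 3 gave 12 called members, and leaving out HPC WT replicate 3 gave 13. The numbers of all genes called in these fits are not given here.

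Without any knockout, most members were lower in HSC than in HPC. Of 45 members, 39 were lower and 1 (Xbp1) was higher in WT HSC, where 54.9% of genes tested were called and 27.2% were lower. The 39 and the median below include Cth, which entered only through its level in HPC and is no result here. The median log2 difference was -1.08, against 0.03 over all genes. All 8 transporters, 5 synthetases, 5 genes of serine and asparagine synthesis and 5 one-carbon genes were lower, with 6 of 7 ER folding genes and 5 of 6 measured regulators. The difference was larger for the amino acid genes (median -1.68 for transporters and -1.10 for synthetases) than for the ER folding genes (median -0.38), a description without a test.

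**Figure D4:**
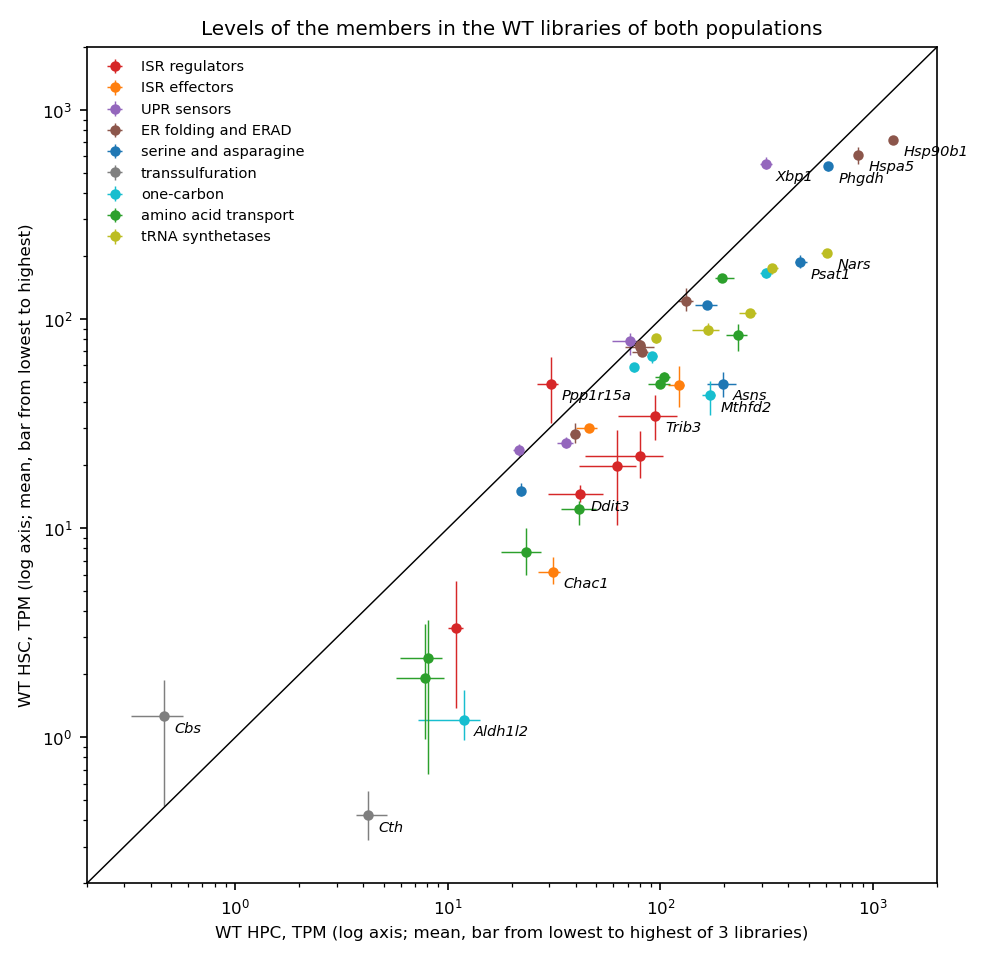
Mean TPM (transcripts per unit of library after division by exon length, so that genes can be compared) of the 45 measured members in WT HPC against WT HSC, both axes logarithmic, bars from the lowest to the highest of 3 libraries, with the line of equal level. Most members lie below the line, and Xbp1, Ppp1r15a, Cbs, Ern1 and Eif2ak3 have a higher mean in HSC. TPM carry no TMM factors. In CPM with these factors, the means in HSC and HPC were 111.2 and 112.4 for Ern1, and 40.97 and 41.76 for Eif2ak3. ER chaperones, Phgdh and Xbp1 are the most abundant in HSC.

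Nars differed with the smallest p, at 190, 195 and 192 CPM in WT HSC against 620.4 to 635.5 in WT HPC (-1.71 ± 0.08, edgeR adjusted p = 5.21e-14). Sars followed, at 143, 142 and 139 against 362 to 399 (-1.45 ± 0.09). Asns (-2.15 ± 0.13) and Psat1 (180.4, 160.5 and 157 CPM in WT HSC, -1.44 ± 0.10) were the strongest of the synthesis genes, and neither overlapped. Chac1 stood at 3.02, 4.03 and 3.29 in WT HSC against 17.3 to 20.8 (-2.48 ± 0.20), Gars at 150.5, 154 and 141 (-1.10 ± 0.08) and Slc7a1 at 141, 145 and 127 (-1.14 ± 0.09). Hsp90b1 stood at 703, 728 and 689 in WT HSC against 1318 to 1423 (-0.94 ± 0.07).

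Xbp1 was the exception, at 419 to 471 CPM in WT HSC and 274.7 to 285 in WT HPC (0.66 ± 0.09, edgeR adjusted p = 1.05e-06). Ern1 and Eif2ak3 were not called (-0.02 ± 0.15 and -0.03 ± 0.08), nor were Ppp1r15a, Sdf2l1 and Cbs. Aldh1l2 differed by -3.42 ± 0.25, from a low level in WT HSC (2.69 ± 0.88 CPM). Cth lay near the floor in WT HSC (0.274 ± 0.0793 CPM, against 3.01 ± 0.487 in WT HPC) and entered this comparison through its level in HPC, so that it had to be lower and no fold is given. In TPM, the members ranged in WT HSC from 0.423 for Cth to 720 for Hsp90b1, with Hspa5 (611 ± 56.2), Xbp1 (550.2 ± 39.2) and Phgdh (536.5 ± 24.4) next. Xbp1 and Phgdh did not differ beyond their ranges there (524 to 595 and 513 to 561.5). In WT HPC the order was Hsp90b1 (1239 ± 28), Hspa5 (852 ± 21.5), Phgdh (613 ± 18.9) and Nars (607 ± 31.1), of which the last 2 overlapped.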

How the data were processed

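The deposited values are raw counts per gene, 1 table for HSC and 1 for HPC, made with featureCounts 2.0.6 from paired reads over exons without regard to strand, per the file headers. Per the submitters' processing notes, reads went through FastQC, Trim Galore 0.6.10 and STAR 2.7.11a. These notes name mm39, the headers an mm10 annotation, and the coordinates match GRCm38. Counting without strand cannot separate a gene from an overlapping one.

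Counts were tested in R 4.3.3 with edgeR 4.0.16 (TMM, filterByExpr, robust quasi-likelihood F test, Benjamini-Hochberg over all genes tested, 0.05), with 9 libraries per cell type, and with all 18 for contrasts across cell types. CPM use the TMM factors of the fit of 18 libraries. TPM were computed from the counts and exon lengths, without TMM factors. The log2 values by library use a pseudocount of 0.5 CPM. The fits were tested on simulated counts. A value after ± is an SD over 3 libraries beside a level and a standard error beside a log2 difference. No 2 libraries of a group agreed within sampling noise (chi-square per degree of freedom 4.61 to 26.9). Alternatives were DESeq2 1.42.0, RLE factors, no filter, only the groups compared, a replicate block and each library left out.

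Members and gene lists (19 lists, 204 entries) were chosen with earlier results of these data known. Named members are 10 defining ones and, per comparison and direction, up to 8 called ones by p. From each list the counts and up to 3 called genes by p in hom against WT are given, and a few other members are named for their role after their values were seen. The 2 CUT&Tag samples were not analysed here.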

Additional observations from a re-analysis of the deposited data

Results flagged for a closer look

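The 22 results below were singled out because a test of the difference itself found that the effect of a knockout on a gene was not the same in HSC and HPC (edgeR joint fit, adjusted p under 0.05). Each value is the log2 effect against WT in HSC minus that in HPC, so a positive value means a higher effect in HSC. Population cannot be told apart from sex of the cells.

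For hom, the difference was 0.56 for Pck2 and 0.83 for Slc1a4. Pck2 was higher than WT in all 3 hom libraries of HSC and lower than WT in all 3 of HPC.

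For het, the difference among regulators was 2.11 for Atf5, 1.11 for Ddit3, 2.20 for Nupr1 and 1.75 for Trib3, and among effectors 1.40 for Chac1 and 0.74 for Sesn2. It was 0.68 for Psat1, 1.19 for Asns and 0.86 for Pck2 in serine and asparagine synthesis, and 0.97 for Mthfd2 and 1.75 for Aldh1l2 in the one-carbon cycle. Among transporters it was 0.93 for Slc7a5, 0.88 for Slc3a2, 1.28 for Slc1a4, 0.60 for Slc1a5 and 1.57 for Slc6a9. Among synthetases it was 0.74 for Aars, 0.52 for Gars, 0.57 for Nars and 0.67 for Sars. Of these 20, 12 were called in every fit that left out 1 library.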

How the results depend on the processing

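Counts are of members called. No result changed direction with a call under any alternative run. In HSC, hom against WT gave 1, 3 with DESeq2, 5 without the filter and 0 to 3 with 1 library left out. Het against WT gave 0, 2 with DESeq2, 4 without the filter and 2 with only the 2 groups. Hom against het gave 0, 6 without the filter and 0 to 3 with 1 library left out. In HPC, hom against WT gave 23 and 9 to 25 with 1 library left out. The difference in hom effect gave 2, 5 with DESeq2, 11 without the filter, 5 with the replicate block, 1 with only the 4 groups and 1 to 6 with 1 library left out. The difference in het effect, chosen after seeing the data, gave 20 and 12 to 20 with 1 library left out. The other counts stayed within 1.5 times under every alternative run. For the other comparisons the numbers of all genes called in each run are not given here. The cause of these changes was not tested, nor whether they were particular to the members.

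Deviations of same-numbered libraries had correlations of -0.127 to 0.14 in HSC and -0.114 to 0.228 in HPC, which does not establish that the numbers pair the samples. Within HPC, replicate 1 had the lowest median of the measured members in each genotype (log2 difference from the WT mean -0.07, -0.76 and -0.41 in WT, het and hom), and a shared origin of same-numbered libraries was not tested further. With the replicate block, HPC gave 26 (hom against WT), 31 (het against WT) and 28 (hom against het) called members. The block gave 21 for the difference in het effect and 5 for that in hom effect, and the same count as without it in the other comparisons. The numbers of all genes called with the block are not given here. Depth limits Cth in HSC and Cbs, which lie near the floor of 3 counts.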
